A study of Mus musculus with 6 samples.

Results

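The cyclophilins are a family of peptidyl-prolyl isomerases, and 10 of their genes were examined in mouse leukemia cells from Alox5-/- and WT donors: Ppia, Ppib, Ppic, Ppid, Ppie, Ppif, Ppig, Ppih, Ppil1 and Ppil2. They were found by gene symbol among the 46983 genes of the count table, and all 10 passed the filter on low counts. The family was chosen by the difference in Ppic counts between the same Alox5-/- and WT libraries, so the differences between genotypes are given for the 10 genes as a description, without a test.

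RNA had been sequenced from cells made leukemic with MLL-AF9, an oncogene in which MLL is fused to AF9, as found in human acute myeloid leukemia. The Alox5-/- group came from C57BL/6J Alox5-/- donors and the WT group from C57BL/6J WT donors, with 3 untreated libraries in each. In both groups sorted bone marrow stem and progenitor cells (Lin-Sca-1+c-Kit+) had received MLL-AF9 by retrovirus, and the GFP-positive cells had been transplanted into irradiated C57BL/6J recipients. Each genotype carries a single cell line label, and neither the animals behind the replicates nor their ages are given, so a p-value here reflects only how far these libraries differ among themselves, which may be technical. Because recipients were not Alox5-/-, any host cell that passed the sort would be wild type at Alox5. In bulk RNA, fewer cells of a type and less RNA per cell cannot be told apart.

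Cyclophilins turn the peptide bond before proline between its cis and trans forms, which helps proteins to fold and lets complexes change shape. Several of them bind cyclosporin A, and the complex of cyclophilin A with this drug blocks the phosphatase calcineurin. The members work in different places: Ppib and Ppic in the endoplasmic reticulum (ER) and the secretory pathway, Ppia and Ppid in the cytosol, Ppif in mitochondria, and Ppie, Ppig, Ppih, Ppil1 and Ppil2 in the nucleus, mostly with the splicing machinery.

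The 250 bases upstream of the annotated RefSeq start (GRCm38.p6) are given for the 3 members whose window held a CCAAT. They are Ppib, the ER partner of Ppic with nearly equal levels in both genotypes, and Ppif and Ppil1, which were lower in Alox5-/- cells. The windows of Ppia, Ppig, Ppih and Ppil2, also lower in mean in Alox5-/- cells, held no CCAAT and are not printed. The 3 shown thus share the motif by choice. Capitals mark CCAAT, the core of the CCAAT box. The windows lie at chr9:66059919-66060168 (plus strand) for Ppib, at chr14:25693920-25694169 (plus strand) for Ppif and at chr17:29263972-29264221 (minus strand) for Ppil1. In GENCODE vM21, Ppif starts at 25694154 and Ppil1 at 29264186, both inside these windows. Most of the Ppil1 window thus lies within that gene model, and positions below hold for the RefSeq start only.
Ppib: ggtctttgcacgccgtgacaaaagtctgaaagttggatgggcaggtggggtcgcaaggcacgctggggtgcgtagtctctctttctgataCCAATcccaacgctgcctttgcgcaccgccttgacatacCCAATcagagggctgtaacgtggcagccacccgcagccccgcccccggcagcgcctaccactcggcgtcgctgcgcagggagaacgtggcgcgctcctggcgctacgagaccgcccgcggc
Ppif: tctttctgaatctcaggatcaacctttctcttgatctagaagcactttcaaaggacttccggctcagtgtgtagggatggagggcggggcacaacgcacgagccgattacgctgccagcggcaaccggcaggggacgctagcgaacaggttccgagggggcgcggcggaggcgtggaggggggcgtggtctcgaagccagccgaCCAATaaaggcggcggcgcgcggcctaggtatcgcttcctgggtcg
Ppil1: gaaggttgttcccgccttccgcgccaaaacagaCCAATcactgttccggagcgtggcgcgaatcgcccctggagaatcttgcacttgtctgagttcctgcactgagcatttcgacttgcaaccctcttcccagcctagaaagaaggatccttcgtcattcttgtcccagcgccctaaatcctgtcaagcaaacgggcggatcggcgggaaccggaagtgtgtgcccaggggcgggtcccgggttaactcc
A CCAAT, read on both strands, stood at positions -160 and -121 from the start in Ppib, at -46 in Ppif and at -217 in Ppil1, so it was present in 3 of the 7 members with a window. Among all 32851 windows of the same length, 33.8% held one. The ER stress element, spelled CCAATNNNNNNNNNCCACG and overlapping the CCAAT motif, occurred in none of the 7 members and in 0.113% of all windows on both strands. The amino acid response element, spelled TGATGNAA, occurred in none of the 7 and in 3.45% of all windows. Windows for Ppic, Ppid and Ppie were not used here.

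The libraries held 28985597 to 38695948 gene counts each. Alox5, the targeted gene, stood at 65.6, 62.1 and 64.9 CPM in the Alox5-/- libraries, against 102, 106 and 106 CPM in the WT libraries, a log2 fold change of -0.70 (SE 0.04) with an edgeR adjusted p of 7.65e-10. CPM are counts normalised for library size by the TMM method. Alox5 transcript was therefore still counted in Alox5-/- cells, so its count checks the genotype labels only in part. Of the sorted population's markers, Kit averaged 136 ± 2.73 CPM in Alox5-/- and 159.7 ± 3.09 CPM in WT cells, and Ly6a, which encodes Sca-1, only 0.763 ± 0.158 CPM in Alox5-/- and 1.06 ± 0.169 CPM in WT cells (SD, n = 3 each). Of 5 MLL fusion targets 1 was called higher and 1 lower: Hoxa9 averaged 307 ± 16.1 CPM in Alox5-/- and 244 ± 7.89 CPM in WT cells, and Hoxa10 averaged 140.3 ± 2.63 CPM in Alox5-/- and 176 ± 1.84 CPM in WT cells. A gene was called at an adjusted p under 0.05 in edgeR's quasi-likelihood test, which held for 53.8% of all tested genes (26.8% higher and 27.0% lower).

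Ppic, which encodes cyclophilin C, a cyclosporin-binding isomerase of the secretory pathway, was the member that differed most between the genotypes. It had 931, 929 and 905 counts in the Alox5-/- libraries and 37, 37 and 51 counts in the WT libraries. After scaling this was 29.9, 31.8 and 30.4 CPM in Alox5-/- cells, against 1.24, 1.25 and 1.34 CPM in WT cells. Every Alox5-/- library lay far above every WT library, and every WT library lay above the 0.0786 to 0.103 CPM that a count of 0 allows (3 counts per library; this floor covers counting error only). The log2 fold change was 4.58 (SE 0.09), or 23.9-fold, and 3 of the 13705 tested genes had a larger one. The coefficient of variation among replicates was 3.16% in Alox5-/- and 4.27% in WT libraries, no larger than the 3.29% and 15.5% that counting alone would give.

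Ppib, which encodes cyclophilin B, the other ER-resident member, showed no such difference. It stood at 222, 231 and 214 CPM in Alox5-/- libraries and 228, 230.5 and 229.6 CPM in WT libraries, and the groups overlapped (log2 fold change -0.05, SE 0.03). The ratio of Ppib counts to Ppic counts was 7.24 ± 0.211 in Alox5-/- and 180.4 ± 7.38 in WT cells (SD, n = 3 each). Ppic supplied 12.1 ± 0.313% of the summed Ppib and Ppic CPM in Alox5-/- and 0.552 ± 0.023% in WT cells. The sum itself was 252.9 ± 9.51 CPM in Alox5-/- cells against 231 ± 1.19 CPM in WT cells.

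**Figure D1:**
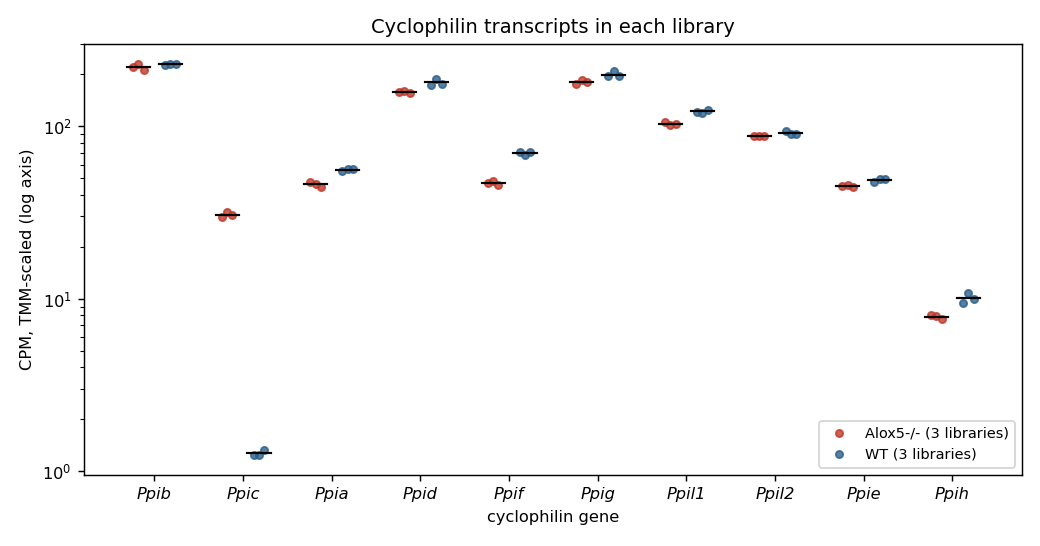
CPM (log axis) of the 10 cyclophilin genes in the 3 Alox5-/- libraries (red, left) and the 3 WT libraries (blue, right), with black bars at the means. Ppic lies near 30.7 CPM in Alox5-/- and 1.27 CPM in WT libraries, while each other member differs by less than 1.5-fold.

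In the cytosol, Ppia encodes cyclophilin A, the main receptor of cyclosporin A. Its counts gave 47.4, 46.5 and 44.5 CPM in Alox5-/- libraries and 54.7, 56.9 and 56.2 CPM in WT libraries. The groups did not overlap, with a log2 fold change of -0.28 (SE 0.04). Ppid encodes cyclophilin 40, which joins Hsp90 through tetratricopeptide repeats. It stood at 157, 159.5 and 156 CPM in Alox5-/- libraries and 175, 189 and 177 CPM in WT libraries, again without overlap (log2 fold change -0.19, SE 0.04).

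Ppif, the mitochondrial cyclophilin D that regulates the permeability transition pore, had the lowest fold change of the family. It stood at 46.9, 48.3 and 46.0 CPM in Alox5-/- libraries and 70.9, 68.6 and 70.6 CPM in WT libraries. The groups were well apart, with a log2 fold change of -0.57 (SE 0.04), or 1.49-fold lower in Alox5-/- cells.

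Among the nuclear members, Ppil1, which binds the splicing factor Snw1, was 105, 102 and 103 CPM in Alox5-/- libraries and 121, 119.9 and 125 CPM in WT libraries (log2 fold change -0.24, SE 0.03). Ppig, which carries an arginine- and serine-rich tail, was 176, 185 and 179.6 CPM in Alox5-/- libraries against 195, 208 and 195 CPM in WT libraries (-0.15, SE 0.04). Ppih, a part of the tri-snRNP that binds Prpf4, was 8.02, 7.90 and 7.64 CPM in Alox5-/- libraries against 9.41, 10.8 and 10.01 CPM in WT libraries (-0.36, SE 0.08). In all 3 genes the Alox5-/- and WT values did not overlap, with Alox5-/- lower.

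Ppie joins an RNA recognition motif to its isomerase domain and is known to bind the third PHD finger of MLL, a part that MLL-AF9 lacks. It was 45.1, 45.5 and 44.7 CPM in Alox5-/- libraries and 47.4, 49.2 and 49.3 CPM in WT libraries (log2 fold change -0.11, SE 0.04). Ppil2, which joins a U-box to a cyclophilin domain, was 88.0, 88.1 and 87.6 CPM in Alox5-/- libraries against 94.3, 90.6 and 90.1 CPM in WT libraries (-0.06, SE 0.03). Both genes were lower in all Alox5-/- libraries, and the gap between the groups was about as wide as the range of the WT libraries for Ppie and narrower for Ppil2.

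Seen as a family, Ppic was higher and the other 9 members were all lower in mean in Alox5-/- cells, with log2 fold changes of -0.57 to -0.05. For 9 of the 10 members the libraries of the genotypes were fully separate, 1 with Alox5-/- higher and 8 with it lower, against 60.0% of all tested genes (29.7% higher and 30.2% lower). These counts come from the comparison that chose the family, and nothing is read from them. The median log2 fold change was -0.17 over the 10 members and 0.00 over all tested genes. Summed over the family, CPM were 928 ± 16.2 in Alox5-/- and 1008 ± 14.7 in WT cells, or, without Ppic, 898 ± 15.5 in Alox5-/- and 1007 ± 14.7 in WT cells. Ppic made up 3.31 ± 0.07% of the family's CPM in Alox5-/- and 0.126 ± 0.0061% in WT cells.

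Replicates of 1 genotype stayed close together for every member. Coefficients of variation ran from 0.317% (Ppil2) to 3.96% (Ppib) in Alox5-/- and from 0.514% (Ppib) to 7.13% (Ppih) in WT libraries. In Alox5-/- libraries, Ppil2 and Ppie (0.863%) varied less than the 1.95% and 2.72% that counting alone would give. Their separation from WT leans in part on these narrow ranges. Ppib varied more than its 1.22%. Ppih is the member with the fewest counts, apart from Ppic in WT cells.

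To set members against each other, CPM were divided by the length of the merged annotated exons. On this scale the order in Alox5-/- cells was Ppib, Ppil1, Ppid, Ppie, Ppig, Ppic, Ppil2, Ppia, Ppif and Ppih, from 67.2 ± 2.66 to 4.15 ± 0.104 CPM per kb. The library ranges of neighbours in this order overlapped only for Ppig (22.2 ± 0.542 CPM per kb) and Ppic (21.9 ± 0.692 CPM per kb). In WT cells the order was Ppib, Ppil1, Ppid, Ppie, Ppig, Ppia, Ppil2, Ppif, Ppih and Ppic, from 69.4 ± 0.357 to 0.908 ± 0.039 CPM per kb, with no overlap between neighbours.

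Ppic thus held place 6 of 10 in Alox5-/- cells and the last place in WT cells, where 19.1% of tested genes had a lower level per kb, against 78.5% in Alox5-/- cells. The order leans on the gene models. By the longest protein-coding transcript, an alternative chosen after seeing the data, Ppic was in place 9 in Alox5-/- cells and again last in WT cells, and Ppib had 249 CPM per kb in Alox5-/- and 257 CPM per kb in WT cells.

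**Figure D2:**
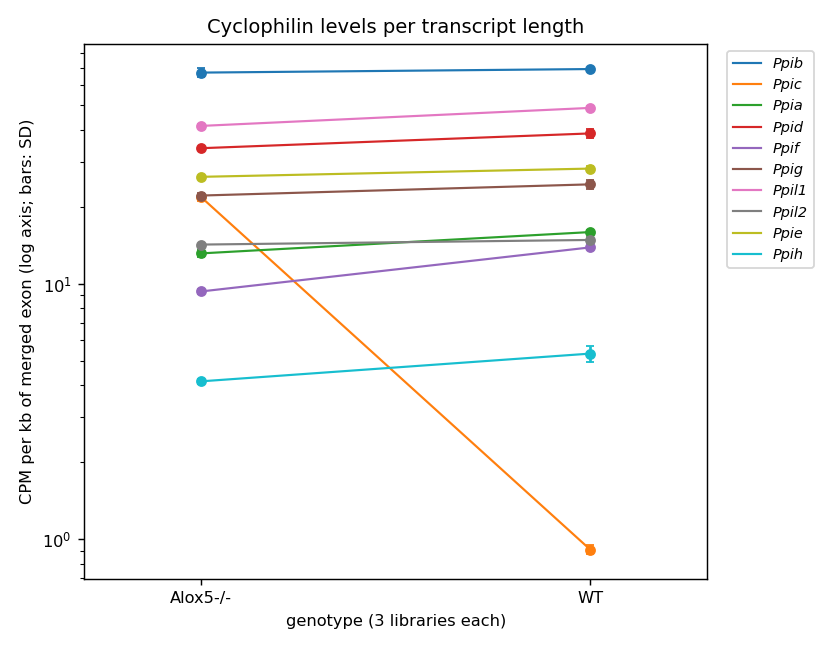
Mean CPM per kb of merged exon (log axis; bars, SD of 3 libraries) of each member in Alox5-/- (left) and WT (right), joined by a line per gene. On this scale Ppic lies in the middle of the family in Alox5-/- cells, at 21.9, and below all others in WT cells, at 0.908. Its place in Alox5-/- cells was 7 by the longest transcript and 9 by the longest protein-coding transcript.

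Some members share sequence with other genes, which bears on their counts because 24.4 to 24.8% of reads aligned to more than 1 place and were not counted. Stretches of at least 100 bases and 97% identity to the longest protein-coding Ppia transcript occurred in 11 other annotated genes, 8 of them pseudogenes, and covered 52.6% of it. Ppih shared such stretches with 6 genes over 43.9% of its transcript. Ppic shared none, and no exon base of Ppic overlapped another annotated gene.

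The absolute levels of Ppia and Ppih are therefore uncertain. Gm10123, a Ppia pseudogene named here after its values were seen, had 30.1 ± 1.42 CPM in Alox5-/- and 36.2 ± 1.55 CPM in WT cells. Gm11585, a Ppih pseudogene chosen in the same way, had 5.50 ± 0.168 CPM in Alox5-/- and 7.21 ± 0.154 CPM in WT cells, and Gm43096, a Ppid pseudogene, had 12.4 ± 0.398 CPM in Alox5-/- and 16.1 ± 1.07 CPM in WT cells (SD, n = 3 each). For each of these 3 pairs, gene and copy were both lower in Alox5-/- than in WT cells, and reads cannot be assigned between them with certainty. Exons of Ppib overlapped those of Snx22 over 25.0% of their length, and exons of Ppif overlapped the antisense gene Ppifos over 18.3%. By the measure used for Ppia and Ppih, Snx22 covered 57.8% of the longest protein-coding Ppib transcript. Unlike the pseudogenes, Snx22 overlaps Ppib at the same place in the genome and is not a copy elsewhere. Reads there can be ambiguous between the 2 genes, and ambiguous reads were 0.523 to 0.547% of each library. The absolute level of Ppib is therefore uncertain too, and with it the ratio of Ppib to Ppic.

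The cyclophilin-domain genes outside the 10 members were not used to choose the family. They are no independent test, since they were read in the same libraries and listed with earlier results of these data known. Of 6 tested, Ranbp2, Nktr and Ppil4 fell, none rose, and Ppwd1, Ppil3 and Cwc27 were without a call; the group's median was -0.13 on the log2 scale. No gene of this group was higher at an unadjusted p under 0.05 in edgeR, or by DESeq2 or limma-voom. Of all tested genes, 27.0% were called lower. Ranbp2, a nuclear pore protein, was 421 ± 2.09 CPM in Alox5-/- cells against 479.7 ± 24.9 CPM in WT cells (-0.19 on the log2 scale, SE 0.04; edgeR adjusted p = 0.000435). Nktr, a large protein with a cyclophilin domain and a serine-rich tail, was 209.6 ± 7.55 CPM in Alox5-/- cells against 235 ± 4.1 CPM in WT cells (-0.16, SE 0.03; edgeR adjusted p = 0.000876). Ppil4, which carries an RNA recognition motif, was 85.8 ± 2.25 CPM in Alox5-/- cells against 95.1 ± 3.88 CPM in WT cells (-0.15, SE 0.04; edgeR adjusted p = 0.00441).

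Ppwd1 was 39.0 ± 0.231 CPM in Alox5-/- cells against 41.9 ± 1.89 CPM in WT cells (edgeR adjusted p = 0.0725). Ppil3 was 30.2 ± 1.11 CPM in Alox5-/- cells against 32.2 ± 0.75 CPM in WT cells (edgeR adjusted p = 0.12), and the spliceosomal Cwc27 42.6 ± 1.28 CPM in Alox5-/- and 44.4 ± 0.986 CPM in WT cells (edgeR adjusted p = 0.266). Ppil6 had no count in any library. The log2 fold changes of these 6 genes lay between -0.19 and -0.06.

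**Figure D3:**
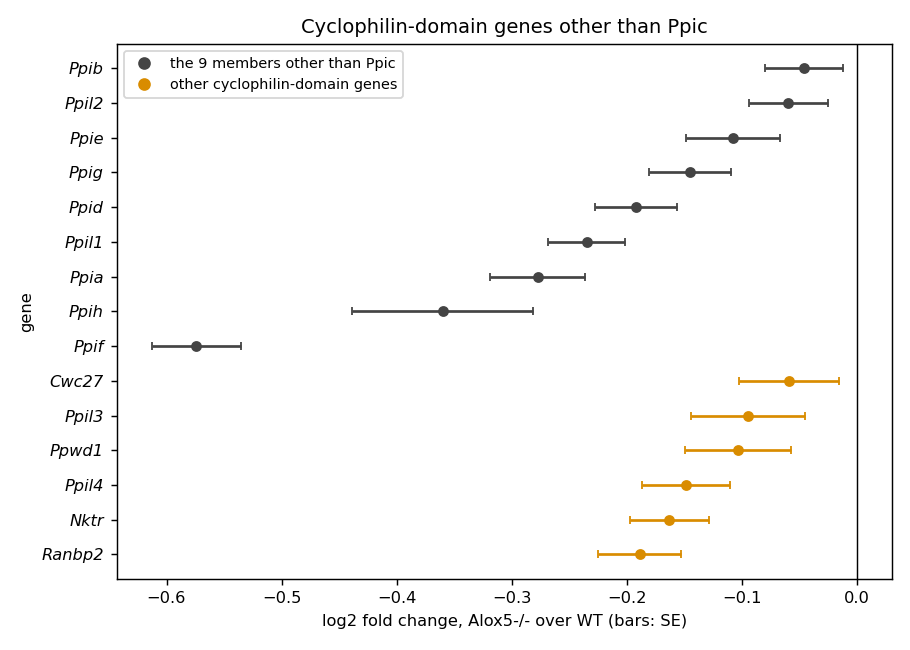
Log2 fold change of Alox5-/- over WT (bars, SE) for the 9 members other than Ppic (grey) and the 6 other tested cyclophilin-domain genes (orange). All 15 points lie below 0, from -0.57 for Ppif to -0.05 for Ppib, on an axis that leaves out Ppic at 4.58.

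The FKBP proteins are a second family of prolyl isomerases, bound by FK506 and rapamycin rather than cyclosporin. Of 15 tested, 4 rose, 5 fell and 6 were not called; their log2 fold changes had a median of 0.04, and the share called was near the 53.8% of all tested genes. Fkbp1a, the main receptor of both drugs, fell to 219.9 ± 3.42 CPM in Alox5-/- cells, against 252 ± 5.48 CPM in WT cells (edgeR adjusted p = 8.94e-05). Fkbp4, an Hsp90 partner, fell by 0.15 on the log2 scale and the ER-resident Fkbp11 by 0.35 (edgeR adjusted p = 0.000556 and 0.000633).

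Fkbp9, another FKBP of the ER, rose at a very low level, with 0.578, 0.957 and 1.04 CPM in Alox5-/- libraries and 0, 0.202 and 0.157 CPM in WT libraries (edgeR adjusted p = 0.000171). One WT library had no count, so the size of the Fkbp9 fold change is uncertain. Fkbp9 passed the filter on low counts only through its Alox5-/- libraries, so its call is no support for a rise. It was not tested when 5 CPM in 3 libraries were required.

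Genes of calcineurin and NFAT, the pathway that cyclosporin blocks through cyclophilin A, moved both ways, with 4 of 10 tested higher, 3 lower and 3 not called (median log2 fold change 0.06), beside 26.8% higher and 27.0% lower of all tested genes. The catalytic subunit Ppp3cc rose 2.21-fold, to 9.21, 10.7 and 10.1 CPM in Alox5-/- libraries, against 4.42, 4.04 and 5.004 CPM in WT libraries (edgeR adjusted p = 1.57e-07). Ppp3ca, the other named catalytic subunit, rose to 181 ± 6.09 CPM in Alox5-/- cells, against 133 ± 2.66 CPM in WT cells (0.45 on the log2 scale, SE 0.03; edgeR adjusted p = 5.88e-08). Of the transcription factors, Nfatc1 rose by 0.29, while Nfatc2 fell by 0.37 and Nfatc3 by 0.13 (edgeR adjusted p = 6.75e-05, 0.000151 and 0.00201).

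Partners outside the cell and at membranes were few. Bsg, the surface receptor CD147 that secreted cyclophilin A binds, was 376 ± 10.1 CPM in Alox5-/- cells against 340.3 ± 13 CPM in WT cells (0.14 on the log2 scale, SE 0.03; edgeR adjusted p = 0.00271). Lgals3bp, the secreted protein first described in mouse as a binder of cyclophilin C, was 6.62 ± 0.376 CPM in Alox5-/- against 8.36 ± 0.461 CPM in WT cells (-0.34, SE 0.08; edgeR adjusted p = 0.00317). Ppic and the gene of its binding protein thus differed in opposite directions. Caml, whose product binds cyclophilin B, was 18.01 ± 0.231 CPM in Alox5-/- cells against 18.5 ± 0.679 CPM in WT cells (edgeR adjusted p = 0.616).

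ER chaperones and the collagen prolyl hydroxylation partners of cyclophilin B had 2 higher and 11 lower members of 15 tested, with a median log2 fold change of -0.32, beside the background of 26.8% higher and 27.0% lower. Hspa5, the ER Hsp70 known as BiP, fell to 1061, 1057 and 1024 CPM in Alox5-/- libraries, against 1469, 1551 and 1437 CPM in WT libraries (-0.50 on the log2 scale, SE 0.03; edgeR adjusted p = 1.53e-08). Pdia4, a disulfide isomerase, fell by 0.45, the chaperone Hyou1 by 0.42 and the lectin chaperone Calr by 0.40 (edgeR adjusted p = 2.39e-08, 4.45e-08 and 5.4e-08). The higher members were Crtap and P3h3, both of collagen prolyl hydroxylase complexes. Serpinh1, the collagen chaperone, had no count in any library. Ppib, which works with these proteins, had a log2 fold change of -0.05 and Ppic one of 4.58.

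Partners of the cytosolic and nuclear cyclophilins were mostly lower. Of 13 Hsp90 genes and co-chaperones, the setting of Ppid, 11 fell, none rose and 2 were not called (median log2 fold change -0.23), beside 27.0% of all tested genes lower and 26.8% higher. At an unadjusted p under 0.05 in edgeR 1 was higher, Unc45a (0.12 on the log2 scale, edgeR adjusted p = 0.0541). It was called higher in 5 of 13 alternatives, with adjusted p between 0.0206 and 0.201, though not by DESeq2 or limma-voom. The chaperone Hsp90aa1 fell by 0.46, the linker Stip1 by 0.38, the ATPase activator Ahsa1 by 0.36 and Tomm34 by 0.45 (edgeR adjusted p = 3.09e-07, 1.57e-07, 2.2e-07 and 5.03e-07). The list of 13 spliceosome partners also held Kmt2a, the MLL gene, whose product binds Ppie but is not a splicing factor. Of these 13 genes, 12 fell and only Snw1, the binder of Ppil1, was not called (median -0.24), beside 27.0% of all tested genes lower. None of these partners was higher at an unadjusted p under 0.05 in edgeR, or called higher by DESeq2 or limma-voom. Prpf19 fell by 0.40, Prpf31 by 0.36, Prpf8 by 0.27 and Prpf3, which sits with Ppih in the tri-snRNP, by 0.37 (edgeR adjusted p = 1.15e-07, 3.4e-07, 3.46e-06 and 6.42e-07).

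Genes linked to the mitochondrial permeability pore, the setting of Ppif, had 2 higher, 4 lower and 5 not called of 11 tested (median log2 fold change -0.04), a share called near the 53.8% of all tested genes. The adenine nucleotide carriers Slc25a5 and Slc25a4 fell by 0.29 and 0.27 (edgeR adjusted p = 9.82e-07 and 5.6e-06). The calcium uniporter gene Mcu and the outer membrane channel gene Vdac3 rose by 0.21 and 0.16 (edgeR adjusted p = 0.000363 and 0.00227). Ppif was therefore lower by more than any of these 4 genes, with no test of that difference.

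**Figure D4:**
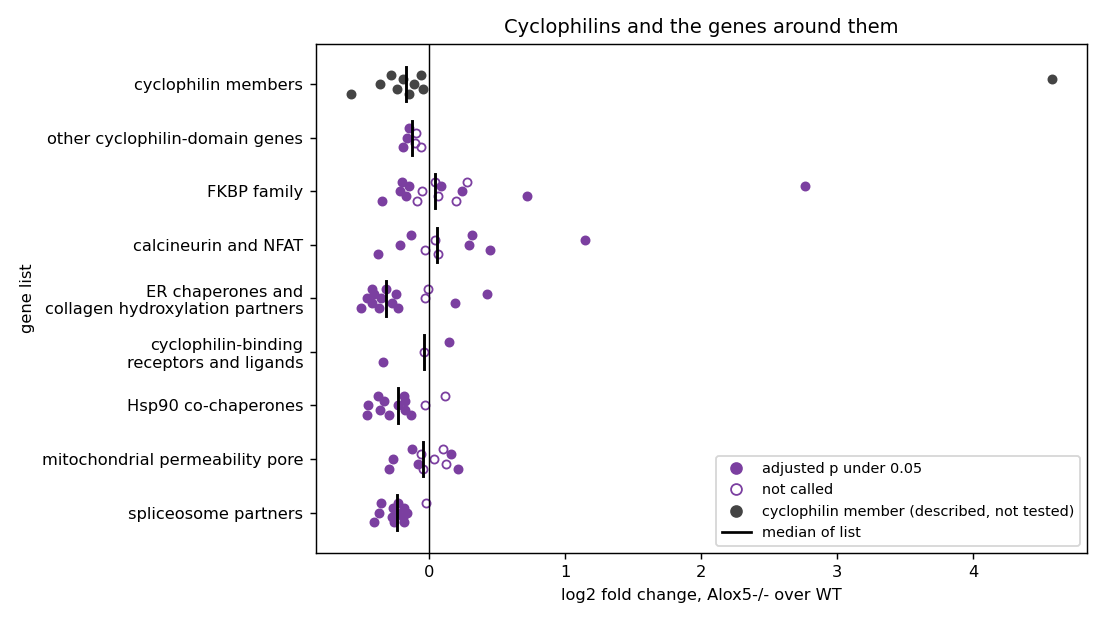
Log2 fold change of Alox5-/- over WT for each tested gene in the cyclophilin family (grey, described without a test) and 8 related lists (purple; filled where the adjusted p was under 0.05), with a black bar at each list's median. List medians run from -0.32 for ER chaperones to 0.06 for calcineurin and NFAT, and Ppic stands apart at 4.58.

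Ppic occupies chromosome 18 between 53406332 and 53418115 (mm10, minus strand, 5 exons in GENCODE vM21), so its surroundings were compared too. Of the 8 nearest tested genes, 4 on each side, 4 rose, 1 fell and 3 were not called, beside a background of 53.8% called. Snx24, a sorting nexin gene 15.4 kb away, rose to 45.6, 43.4 and 43.9 CPM in Alox5-/- libraries, against 27.1, 28.5 and 26.5 CPM in WT libraries (0.70 on the log2 scale, SE 0.05; edgeR adjusted p = 1.68e-08). Prdm6, the next gene on the other side, had no count in any library.

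Snx2, another sorting nexin gene 185 kb away, rose by 0.12 (edgeR adjusted p = 0.00245), and Sncaip, 490.4 kb away, fell to 11.2 ± 0.887 CPM in Alox5-/- cells, against 22.3 ± 0.367 CPM in WT cells (-0.998 on the log2 scale, SE 0.07; edgeR adjusted p = 1.21e-08). On the other side Cep120 was 65.9 ± 2.39 CPM in Alox5-/- cells against 64.2 ± 1.5 CPM in WT cells (edgeR adjusted p = 0.456), Csnk1g3 rose by 0.22 (edgeR adjusted p = 0.000807) and Zfp608 by 0.16 (adjusted p = 0.00901). Gm5507 and Srfbp1 were not called (edgeR adjusted p = 0.137 and 0.179). The differences around Ppic thus went both ways and were small beside its own.

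**Figure D5:**
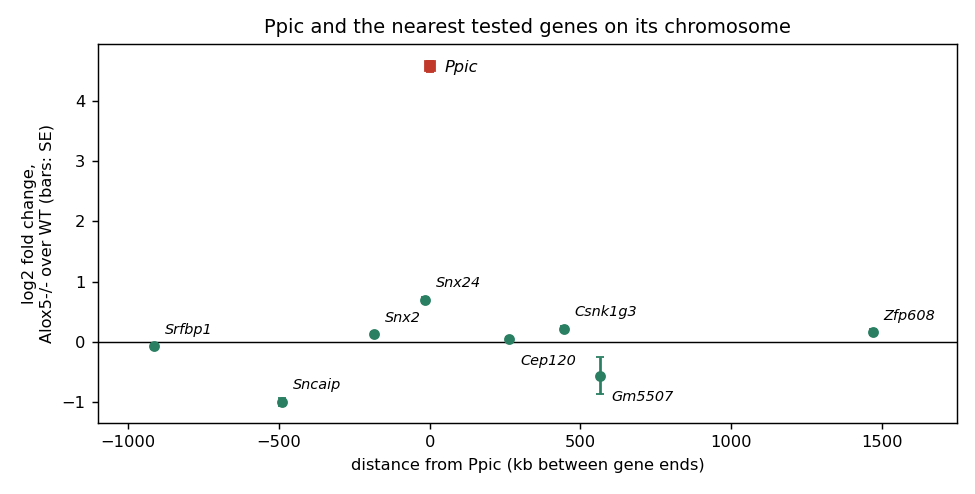
Log2 fold change of Alox5-/- over WT (bars, SE) for Ppic (red square) and the 4 nearest tested genes on either side (green), against the distance in kb between gene ends. Snx24, the closest at 15.4 kb, stands at 0.70 and Sncaip at -0.998, below the 4.58 of Ppic.

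The genes whose profile over the 6 libraries was most like that of Ppic were sought among 10210 genes that averaged 5 CPM or more, by the root mean square difference of mean-centred log2 CPM. They were Snx7 (0.676), F7 (0.816), Cldn11 (0.99), Ddit3 (1.01) and Frzb (1.15), with the difference in log2 units in parentheses. None matched Ppic closely: Snx7 was 18.9, 19.6 and 21.7 CPM in Alox5-/- libraries and 2.14, 2.05 and 2.17 CPM in WT libraries, a smaller contrast. All 5 were higher in every Alox5-/- library than in every WT library, a shape that the search itself favours.

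Markers of cell types that could carry Ppic were read in the same libraries. Of 14 stromal and endothelial markers only 4 passed the filter on low counts, with 2 higher and none lower (26.8% and 27.0% of all tested genes), and the summed level of the list was 210.3 to 215 CPM in Alox5-/- and 187 to 189.7 CPM in WT libraries. Nearly all of it was Pecam1, at 196 ± 2.45 CPM in Alox5-/- cells against 174 ± 0.784 CPM in WT cells. Pdgfrb, the next, was clearly counted, at 12.98 ± 1.27 CPM in Alox5-/- cells against 11.17 ± 0.797 CPM in WT cells. It was higher in mean in Alox5-/- cells, but the libraries of the genotypes overlapped. Vwf was at 2.818 ± 0.0239 CPM in Alox5-/- cells against 2.763 ± 0.342 CPM in WT cells. Dcn, Lum and Tek had no count in any library, Col1a2 had none in Alox5-/- libraries, and Col1a1 was at 0.501 ± 0.1 CPM in Alox5-/- cells against 0.392 ± 0.085 CPM in WT cells.

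Macrophage markers summed to 32.9 to 35.9 CPM in Alox5-/- and 42.6 to 45.8 CPM in WT libraries, with Marco, Vsig4 and Timd4 at 0 in all 6. Only 2 of the 10 were tested, with 0 higher and 1 lower. Nearly all of the sum was Adgre1, at 32.9 ± 1.40 CPM in Alox5-/- cells against 43.1 ± 1.93 CPM in WT cells. Mrc1, the next, was at 1.11 ± 0.128 CPM in Alox5-/- cells against 0.969 ± 0.250 CPM in WT cells. Megakaryocyte, basophil and mast cell markers summed to 58.1 to 63.0 CPM in Alox5-/- against 129 to 139.9 CPM in WT libraries. Of the 10, 5 were tested, with 0 higher and 3 lower (26.8% and 27.0% of all tested genes). The largest was Hdc, at 35.1 ± 2.51 CPM in Alox5-/- cells against 96.0 ± 4.62 CPM in WT cells. Mcpt8 differed little, at 21.0 ± 2.22 CPM in Alox5-/- cells against 23.5 ± 1.23 CPM in WT cells, and Prss34 and Fcer1a were at 0. Lymphoid and erythroid lists stayed at or below 1.70 and 0.865 CPM in every library. Myeloid progenitor markers summed to 5468 to 5583 CPM in Alox5-/- and 5221 to 5590 CPM in WT libraries, with 2 higher and 6 lower of 10, beside 26.8% higher and 27.0% lower of all tested genes. Within this list Ctsg averaged 2712 ± 26.8 CPM in Alox5-/- and 2229 ± 45.5 CPM in WT cells, and Mpo averaged 65.6 ± 7.76 CPM in Alox5-/- and 197 ± 13.4 CPM in WT cells, both named after their values were seen. The part of these markers in the differences of the cyclophilins was not tested.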

How the data were processed

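Poly-A RNA from flow-sorted cells was amplified with a SMARTer kit, per the labels' protocols. The authors deposited raw read counts per gene made with HTSeq on mm10, per the submitters' processing notes (DESeq2 is named there too). The sources used here do not give the aligner, annotation release or strand setting, so overlapping and antisense genes cannot be told apart with certainty. The 5 summary rows that name no gene were left out, and genes held 60.0 to 60.9% of reads.

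From the counts, Alox5-/- was tested against WT in R 4.3.3 with edgeR 4.0.16: TMM scaling, default expression filter (13705 genes tested), quasi-likelihood F-test without covariates, Benjamini-Hochberg adjustment over all tested genes, threshold 0.05. The procedure was checked on simulated counts. DESeq2 1.42.0, limma-voom 3.58.1, other scalings and filters, a replicate block and leaving out each library were alternatives. Lengths and positions came from GENCODE vM21 of the same build, which held 98.95% of gene identifiers. Shared sequence was found with BLAST 2.17.0. Libraries of a genotype differed by more than sampling noise (chi-square over its degrees of freedom 2.11 to 9.65). The largest values came from Alox5-/- replicate 2, with 8.53 against replicate 1 and 9.65 against replicate 3. Pairs of WT libraries gave 2.20 to 4.79, and pairs across genotypes 33.1 to 46.7.

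The members and lists were chosen with earlier results of these data known. Named were all members, up to 4 called genes per list by smallest p (all tested genes of the 2 shortest), the nearest neighbours of Ppic, the 5 genes most like it, and Alox5. Some further list genes, such as Ppp3cb and Nfatc3, were given beside them. Camlg was matched through its older symbol Caml. Another related gene list is not reported here.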

Additional observations from a re-analysis of the deposited data

How the results depend on the processing

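Called genes numbered 7379 in the test as reported, 7374 with limma-voom, 6407 with DESeq2, 7622 with no filter, 6219 when 5 CPM in 3 libraries were required, 7365 with DESeq2 size factors, 7277 with upper-quartile scaling and 6583 to 7251 with a library left out. The log2 fold change of Ppic stayed between 4.56 and 4.62, and no member changed direction, under any of these 13 alternatives, the replicate block included. Upper-quartile scaling moved 3 members by more than their spread between replicates, to -0.0799 for Ppie, -0.207 for Ppil1 and -0.0317 for Ppil2. Counts of list genes called stayed within 1.5 times. Among genes named outside the family, Zfp608 lost its call without Alox5-/- replicate 1 (adjusted p = 0.05), Gm5507 gained one without Alox5-/- replicate 2 (0.0132) and Ppwd1 without WT replicate 3 (0.0297). Of the 20 places in the 2 orders of levels per kb, 12 were kept with the longest transcript and 7 with the longest protein-coding transcript. Same-numbered libraries of the genotypes did not deviate together (correlations of -0.08 to 0.02), so their numbers do not pair them; with a replicate block 7029 genes were called. Depth limits Ppic in WT cells, with 37 to 51 counts a library, and Fkbp9.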
